A study of Mus musculus with 6 samples.

Results

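Mitochondrial fatty acid oxidation breaks long-chain fatty acids into acetyl-CoA. A fatty acid is first joined to coenzyme A, carried into the matrix as a carnitine ester, and then shortened in repeated rounds of dehydrogenation, hydration, dehydrogenation and thiolysis, while electron transfer flavoprotein passes electrons from the acyl-CoA dehydrogenases towards the respiratory chain. Fasting raises the supply of fatty acids to this pathway in many tissues, and the peroxisome proliferator-activated receptors are its best known transcriptional regulators. In the spleen, lymphocytes, macrophages and red cell precursors all hold mitochondria and can express these enzymes.

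The genes described here are 10 enzymes along that path, Acsl1, Cpt1a, Cpt2, Acadvl, Acadl, Acadm, Hadha, Hadhb, Etfa and Etfb, in 5 steps. Every probe that carried one of these symbols in the authors' deposited table was taken, which gave 18 of its 31692 probes, for 10 of the 16361 gene symbols it lists. All 18 were well above background on all 6 arrays and entered the test, which covered 33740 probes of the array. Acsl1, Hadhb and Etfa had 3 probes each and Cpt2 and Etfb 2 each, and the other 5 genes had 1.

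Spleen RNA came from female NOD mice, a strain that becomes diabetic through autoimmunity. The mice were 6 weeks old at the start. One group was injected into the peritoneum every day with 0.5 mg/kg/day of MOTS-c, a peptide whose reading frame lies in the mitochondrial genome, and the other with a scrambled peptide as vehicle. Both groups were fasted for 16 to 18 h before the spleen was taken at 18 weeks of age, so no array shows the fed state. Each group had 3 arrays, called MOTS-c 1 to 3 and vehicle 1 to 3, and the labels do not say that samples came from separate mice. The comparison asks how transcripts of these enzymes in the fasted spleen differ after MOTS-c treatment.

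On each 1-colour array the share of spots well above background was 61.8% to 64.0%, saturation was seen at 0 spots, and the 75th percentile of signal ranged from 678 to 926. Levels below are log2 of the processed signal minus that percentile of the same array, so 0 is the percentile itself. Differences are MOTS-c minus vehicle in log2 with their standard error from limma, and adjusted p-values are Benjamini-Hochberg over all 33740 probes. Vehicle 1 and 2 were on slide 1, while vehicle 3 and all MOTS-c arrays were on slide 2, so a difference with slide as a block in the fit sets the MOTS-c arrays against vehicle 3 alone. Lists of spleen cell markers also differed between the groups on these arrays. All 12 tested T cell genes and all 10 B cell genes had higher fitted levels with MOTS-c, with median differences of 0.93 and 0.72, although no gene of either list passed the test. Vehicle 1 was the lowest array for both lists, with mean deviations of -1.43 and -1.37, and without it the medians were 0.41 and 0.28. In vehicle 3 the summed level of 9 pancreatic acinar genes was 234, against 5.82 to 13.7 on the MOTS-c arrays and 8.68 to 21.1 on vehicle 1 and 2.

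Most of these enzymes had lower transcript levels with MOTS-c by amounts well under 2-fold, Acsl1 excepted, and none passed the test over all probes. The fitted difference was below 0 for 16 of 18 member probes, against 47.8% of all tested probes (14 of 18 under quantile normalization, against 45.7%), with a median of -0.27 over the member probes and 0.02 over all tested probes. MOTS-c and vehicle values did not overlap for 11 member probes, all lower with MOTS-c, against 18.5% of all tested probes not overlapping in that direction. Most of these 11 are repeat probes of Acsl1, Hadhb and Etfa, so they do not stand for separate genes. Not one member probe had its MOTS-c values all above its vehicle values, which 16.3% of all tested probes did. Without vehicle 3, the array high in pancreatic genes, 12 member probes were lower without overlap, against 27.2% of all tested probes. In that setting 1 was higher, against 23.9%, and the median was -0.36. It sets vehicle arrays of slide 1 alone against MOTS-c arrays of slide 2, so treatment and slide cannot be told apart there. At limma's adjusted p under 0.05, 0 member probes were called, against 0.00593% of all tested probes (2 probes, both higher with MOTS-c). At an unadjusted limma p under 0.05, 8 member probes were lower, against 14.1% of all tested probes, and 0 were higher, against 11.3%. Those 8 are probes of Acsl1, Acadl, Hadhb and Etfa only. Adjusted p-values of the member probes ran from 0.0795 to 0.833. One member probe, the brightest of Acsl1, was called with a trended prior in eBayes, where 2.09% of tested probes were called lower and 0.222% higher. It was called again without vehicle 2, where 2.87% were called lower and 0.427% higher. With slide as a block 0 member probes were called, against 0.00296% of tested probes called lower and 0 higher. With 3 arrays against 3, an exact permutation test of a single probe cannot give a p below 0.1.

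**Figure D1:**
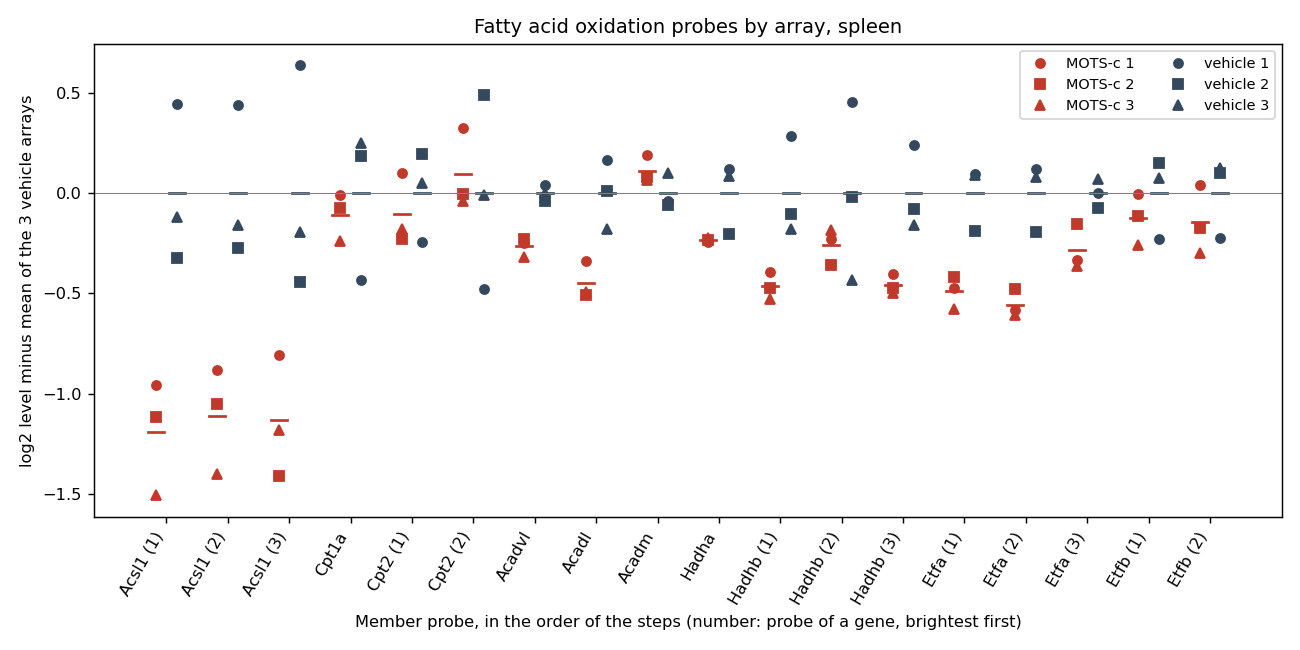
Log2 level of the 18 member probes on each array, centred on the probe's mean over the vehicle arrays, with MOTS-c arrays left of vehicle arrays for each probe. The 3 Acsl1 probes stand furthest below their vehicle mean, while Cpt1a, Cpt2, Acadm, Etfb and a Hadhb probe have overlapping groups.

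Signal strength moved with the difference over the whole array. Tested probes with a mean level above 0 had a median difference of -0.07, and those at 0 or below had 0.08. The 14 member probes with a mean level above 0 had a median of -0.36. Of these, 92.9% had a fitted difference below 0, against 56.9% of all tested probes with a mean level above 0. Leaving out Acsl1, the median of the other 15 member probes was -0.26. Under quantile normalization the median was -0.25 over the member probes, 0.04 over all tested probes and 0.04 over those with a mean level above 0. The groups were then apart for 11 member probes lower with MOTS-c, against 16.6% of tested probes, and for 1 higher, against 17.9%.

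Among the members, Acsl1 showed the widest gap, and it alone stands for the first step, activation of the fatty acid. Acsl1 encodes a long-chain acyl-CoA synthetase, which joins coenzyme A to fatty acids before they are oxidised or built into lipids. Its brightest probe (mm9 chr8:47621232-47621291) read 3.24, 3.09 and 2.69 on MOTS-c 1, 2 and 3, against 4.65, 3.87 and 4.08 on vehicle 1, 2 and 3. All MOTS-c arrays lay below all vehicle arrays, MOTS-c 3 was lowest and vehicle 1 highest. The difference was -1.19 ± 0.25 (95% interval -1.77 to -0.61), a level 2.29-fold lower with MOTS-c, with a limma p of 0.0017 and an adjusted p of 0.0795.

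The other Acsl1 probes, which lie at other positions of the gene, gave much the same difference at this scaling. The probe at chr8:47620082-47620141 read -0.11, -0.28 and -0.62 with MOTS-c, against 1.21, 0.50 and 0.61 with vehicle, a difference of -1.11 ± 0.24 (limma adjusted p = 0.080). The dim probe at chr8:47601866-47601925 read -4.47, -5.07 and -4.84 with MOTS-c, against -3.03, -4.11 and -3.86 with vehicle, a difference of -1.13 ± 0.30 (limma adjusted p = 0.101). On both probes the groups did not overlap, and vehicle 1 was again the highest array. The 3 Acsl1 differences lay within 0.08 of each other. Under normexp with quantile normalization the dim probe was at -0.48, while the others were at -1.01 and -1.06. They were the only member probes with a difference of -1 or lower, which 4.47% of all tested probes had. Without vehicle 1 the Acsl1 differences were -0.97, -0.89 and -0.81, and with slide as a block they were -1.07, -0.95 and -0.94.

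In bulk tissue, fewer cells of a type that holds a transcript and less of that transcript per cell cannot be told apart. Over the 6 arrays Acsl1 ran with erythroid and cell division markers. Its deviations from its own mean were -0.36, -0.52 and -0.91 on the MOTS-c arrays, against 1.04, 0.27 and 0.48 on the vehicle arrays. The mean deviations of 19 erythroid genes were -0.54, -0.42 and -0.68 with MOTS-c, against 0.90, 0.13 and 0.61 with vehicle. All 19 had lower fitted levels with MOTS-c, with a median of -1.19, and their summed level was 1146 to 1272 with MOTS-c, against 1538 to 2209 with vehicle. All 18 cell cycle genes likewise had lower fitted levels, with a median of -1.15 and sums of 191 to 245 with MOTS-c, against 363 to 605 with vehicle. This ordering by group was not particular to the erythroid and cell cycle lists. Nuclear oxidative phosphorylation genes had mean deviations of -0.20, -0.12 and -0.28 with MOTS-c, against 0.38, 0.14 and 0.08 with vehicle. The part of any of these lists in the Acsl1 difference was not tested.

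Neutrophil markers did not run with Acsl1. Their mean deviations were 0.91, 1.18 and -0.65 with MOTS-c, against -0.63, -1.39 and 0.59 with vehicle. All 10 of them had higher fitted levels with MOTS-c (median 0.97), and for 0 of them were the groups apart. Of 7 adipocyte genes only 3 were tested, with sums of 0.266 to 1.66 with MOTS-c and 0.319 to 0.635 with vehicle. Of 13 macrophage and monocyte genes, 6 had lower and 7 higher fitted levels, with a median of 0.09, and 3 lower and 10 higher under quantile normalization.

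**Figure D2:**
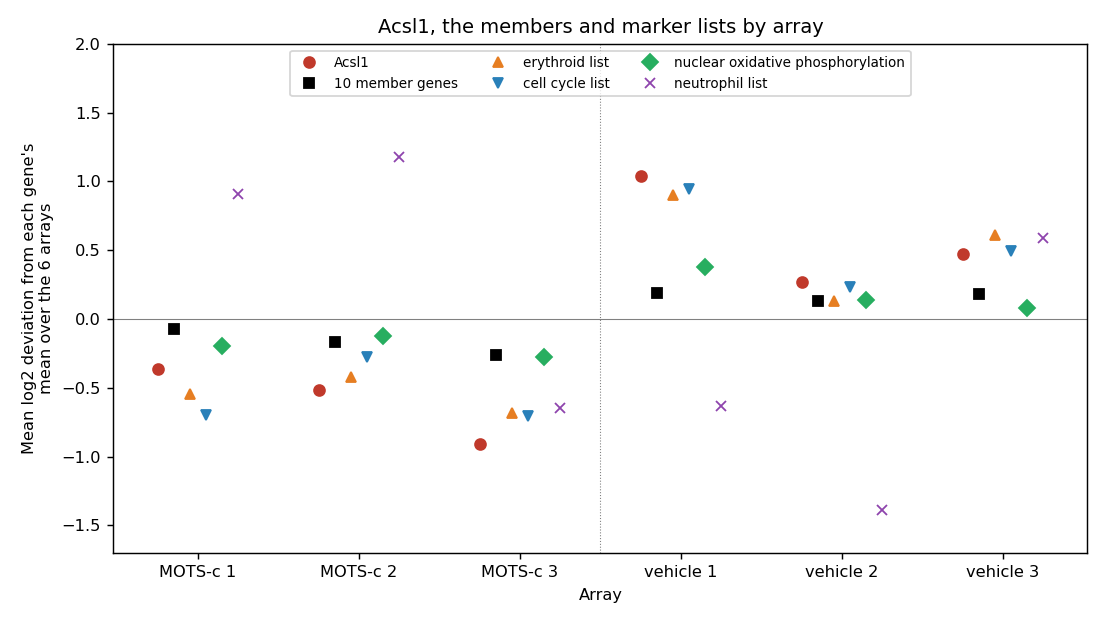
Mean log2 deviation of Acsl1, the 10 member genes, and 4 gene lists from each gene's mean over the 6 arrays (y axis), for each array (x axis), with MOTS-c arrays at left. Except for the neutrophil list, all points are below 0 on every MOTS-c array and above 0 on every vehicle array. This holds for Acsl1, the member genes, and the erythroid, cell cycle and nuclear oxidative phosphorylation lists. The neutrophil points are not ordered by group.

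Among 16819 other genes outside the pathway lists, those nearest to Acsl1 by root mean square distance of centred log2 levels over the 6 arrays were Fech, Isca1, Mzt1, Scd4 and Nqo1. Fech encodes ferrochelatase, the last enzyme of haem synthesis, and lay at a distance of 0.0455. It read 5.64 to 6.09 with MOTS-c, against 6.76 to 7.51 with vehicle, a difference of -1.22. Isca1, an iron-sulphur cluster assembly factor, followed at 0.0741 with a difference of -1.17, and Mzt1, a partner of the gamma-tubulin complex, at 0.0746 with -1.25. Scd4, a stearoyl-CoA desaturase, lay at 0.0829 with -1.08, and Nqo1, a quinone reductase, at 0.0842 with -1.31. These distances describe 6 arrays of the same 2 groups. The member nearest to Acsl1 was Hadhb at 0.40. The genes above were the closest of 16819 and Hadhb the closest of the few other members. The 2 kinds of distance are therefore not compared.

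The carnitine shuttle members, Cpt1a and Cpt2, showed no separation of the groups. Cpt1a encodes the outer membrane carnitine palmitoyltransferase, the step that malonyl-CoA inhibits. Its probe (chr19:3385374-3385433) read 2.75, 2.68 and 2.51 with MOTS-c, against 2.32, 2.94 and 3.004 with vehicle. Vehicle 1 was below all MOTS-c arrays and vehicle 2 and 3 were above all of them, so the groups overlapped. The difference was -0.11 ± 0.21 (95% interval -0.61 to 0.39, limma adjusted p = 0.763). It was 0.0032 under quantile normalization and -0.36 with slide as a block.

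Cpt2 encodes the inner membrane transferase that returns the acyl group to coenzyme A. Its brighter probe (chr4:107576571-107576610) read 2.21, 1.88 and 1.93 with MOTS-c, against 1.87, 2.30 and 2.16 with vehicle, a difference of -0.10 ± 0.18 (limma adjusted p = 0.726). Its dim probe (chr4:107580325-107580384) read -3.82, -4.15 and -4.18 with MOTS-c, against -4.62, -3.66 and -4.16 with vehicle, a difference of 0.09 ± 0.26 (limma adjusted p = 0.833). Both probes overlapped, they differed in sign, and on both vehicle 1 was the lowest array.

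The first dehydrogenation of each round is shared by acyl-CoA dehydrogenases that differ in the chain length they prefer. Acadvl, the very long-chain enzyme of the inner membrane, read 3.48, 3.50 and 3.41 with MOTS-c (chr11:69823722-69823781), against 3.77, 3.69 and 3.73 with vehicle. The groups did not overlap and the spread within each was small, 0.05 in MOTS-c arrays and 0.04 in vehicle arrays (SD, n = 3 each). The difference was -0.27 ± 0.13 (limma adjusted p = 0.243). It was -0.08 under quantile normalization, where the groups still did not overlap.

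Acadl, the long-chain enzyme, read 2.42, 2.25 and 2.26 with MOTS-c (chr1:66877452-66877511), against 2.92, 2.77 and 2.58 with vehicle. Every MOTS-c array was below every vehicle array. The difference was -0.45 ± 0.15 (limma adjusted p = 0.144), and -0.27 with slide as a block.

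Acadm, the medium-chain enzyme, was the only member gene with a higher fitted level on its brightest probe. Its probe (chr3:153585469-153585528) read 2.94, 2.83 and 2.82 with MOTS-c, against 2.71, 2.70 and 2.85 with vehicle. Vehicle 3 lay above 2 of the MOTS-c arrays, so the groups overlapped. The difference was 0.11 ± 0.14 (limma adjusted p = 0.616), and 0.01 with slide as a block. Under quantile normalization it was 0.23 and the groups no longer overlapped, and the authors' deposited table gives a fold of 1.18 with a p-value of 0.0319 and an adjusted one of 0.370.

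Hadha and Hadhb encode the alpha and beta subunits of the mitochondrial trifunctional protein. The alpha subunit holds the hydratase and the long-chain hydroxyacyl-CoA dehydrogenase, and the beta subunit holds the thiolase. The genes lie head to head on chromosome 5. In the RefSeq annotation of GRCm38.p6, 272 bases separate the start of Hadha on the minus strand from that of Hadhb on the plus strand. Of this shared stretch, the 250 bases nearest to the Hadhb start are shown. They are in lower case and 5′ to 3′ on the plus strand towards Hadhb, at chr5:30155003-30155252 of GRCm38.p6. Whether the stretch has a part in the difference of either gene was not tested.

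Hadhb upstream: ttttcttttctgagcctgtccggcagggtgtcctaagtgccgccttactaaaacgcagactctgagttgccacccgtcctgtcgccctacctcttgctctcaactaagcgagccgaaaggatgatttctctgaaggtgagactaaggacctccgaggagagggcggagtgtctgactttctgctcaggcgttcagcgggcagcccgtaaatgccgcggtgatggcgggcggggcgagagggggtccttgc

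Hadha read -0.57, -0.56 and -0.55 with MOTS-c (chr5:30446215-30446274), against -0.21, -0.53 and -0.24 with vehicle. The groups did not overlap, but vehicle 2 lay only 0.02 above the highest MOTS-c array. The difference was -0.23 ± 0.15 (limma adjusted p = 0.341).

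The brightest Hadhb probe (chr5:30510925-30510984) read 3.55, 3.47 and 3.41 with MOTS-c, against 4.22, 3.83 and 3.76 with vehicle, a difference of -0.46 ± 0.17 (limma adjusted p = 0.157). The probe at chr5:30503442-30503500 read 0.36, 0.29 and 0.26 with MOTS-c, against 1.00, 0.68 and 0.60 with vehicle, a difference of -0.46 ± 0.16 (limma adjusted p = 0.145). On both probes every MOTS-c array was below every vehicle array, and vehicle 1 was highest. With slide as a block their differences were -0.29 and -0.30, and under quantile normalization the first was -0.27.

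The remaining Hadhb probe (chr5:30494754-30494813) did not separate the groups. It read 0.57, 0.44 and 0.62 with MOTS-c, against 1.25, 0.78 and 0.37 with vehicle. Vehicle 3 was its lowest array and the groups overlapped. The difference was -0.26 ± 0.23 (limma adjusted p = 0.494), but -0.03 without vehicle 1 and 0.18 with slide as a block.

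Etfa and Etfb encode the alpha and beta subunits of electron transfer flavoprotein, which accepts electrons from every acyl-CoA dehydrogenase of the matrix. The subunits act as a pair. In these data the groups were apart on every Etfa probe and overlapped on both Etfb probes. The 3 Etfa probes are printed because they lie at separate genomic positions of the gene and their groups did not overlap on any of them. They are given in lower case as the deposited table has them, with positions on the minus strand of mm9 chromosome 9.

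Etfa probe 1, chr9:55309428-55309487: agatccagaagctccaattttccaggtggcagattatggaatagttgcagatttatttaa
Etfa probe 2, chr9:55312655-55330127: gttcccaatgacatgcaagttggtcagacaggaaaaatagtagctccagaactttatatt
Etfa probe 3, chr9:55343560-55343619: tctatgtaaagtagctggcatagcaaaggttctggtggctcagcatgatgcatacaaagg

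Each is 60 bases long. The ends of probe 2 map over a span of 17473 bases, so its bases are not contiguous in the genome. Probe 1 read 3.35, 3.40 and 3.25 with MOTS-c, against 3.92, 3.63 and 3.91 with vehicle, a difference of -0.49 ± 0.15 (limma adjusted p = 0.124). Probe 2 read 2.62, 2.72 and 2.59 with MOTS-c, against 3.32, 3.001 and 3.28 with vehicle, a difference of -0.56 ± 0.15 (limma adjusted p = 0.104). On both, vehicle 2 was the vehicle array closest to the MOTS-c arrays.

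Probe 3 read -0.66, -0.47 and -0.68 with MOTS-c, against -0.32, -0.39 and -0.25 with vehicle, a difference of -0.28 ± 0.14 (limma adjusted p = 0.245). Its groups too were apart, with a narrower gap. With slide as a block the 3 Etfa differences were -0.58, -0.63 and -0.35, each further from 0 than without it. Under quantile normalization they were -0.30, -0.42 and -0.29, the first 2 of them closer to 0.

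Etfb showed overlapping groups on both probes. The brighter (chr7:50713078-50713137) read 4.13, 4.01 and 3.87 with MOTS-c, against 3.90, 4.28 and 4.21 with vehicle, a difference of -0.13 ± 0.16 (limma adjusted p = 0.633). It became 0.10 under quantile normalization. The other probe (chr7:50709896-50711851) read 2.17, 1.95 and 1.83 with MOTS-c, against 1.90, 2.22 and 2.25 with vehicle, a difference of -0.14 ± 0.17 (limma adjusted p = 0.599). Vehicle 1 was low on both, below 2 of the MOTS-c arrays. Whether Etfa and Etfb differed in their response was not tested.

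**Figure D3:**
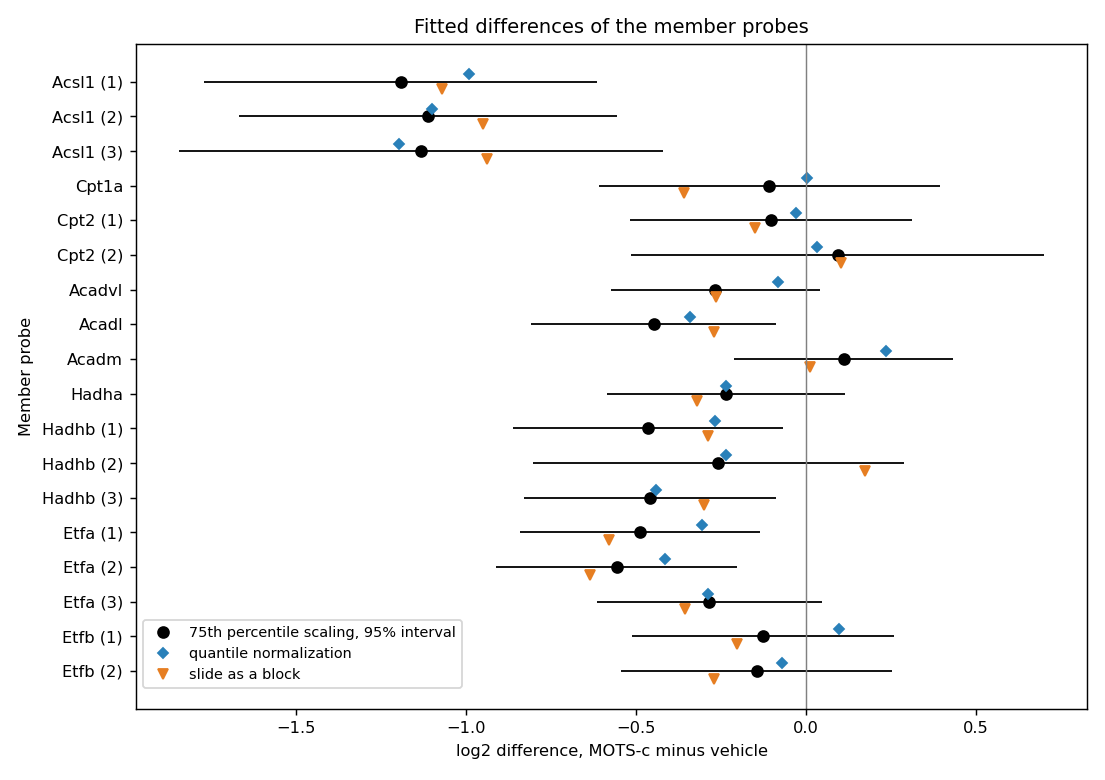
Log2 difference, MOTS-c minus vehicle, of each member probe with its 95% interval (x axis), ordered by step from activation to electron transfer, with the difference under quantile normalization and with slide as a block beside it. The 3 Acsl1 probes lie between -1.19 and -1.11, and the other 15 lie between -0.56 and 0.11.

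By array, the member nearest to another was often of a different step. Acadvl was nearest to Hadha (root mean square distance 0.0903 over the 6 arrays), and Acadl was nearest to Hadhb at 0.0749. Cpt1a and Cpt2 were each nearest to Etfb, at 0.113 and 0.0724, and vehicle 1 was the lowest vehicle array for all 3. Etfa was nearest to Acadvl at 0.136. The nearest member to Acadm was Etfb at 0.17, and only Acsl1 had a larger distance to its nearest member.

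In the authors' deposited table, whose log2 values match quantile normalization, 7 member probes were lower and 1 was higher at a p-value under 0.05, against 7.90% of the table's probes lower and 5.54% higher. The 3 Acsl1 probes have signed folds of -1.99, -2.14 and -2.29 there, with p-values of 0.0106, 0.0173 and 0.0495. The other probes lower at that p-value were the single probe of Acadl and the 3 of Etfa, and the higher one was Acadm. Not one of the table's 31692 probes had an adjusted p-value under 0.05, and the smallest was 0.370. On those log2 values 11 member probes were lower without overlap, against 16.7% of the table, and 1 was higher, against 17.7%.

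Around these enzymes, 105 further genes of lipid metabolism were listed by step. Of them 103 were tested, 41 with lower and 62 with higher fitted levels with MOTS-c, with a median difference of 0.07 (36 lower and 67 higher under quantile normalization, median 0.13), and limma's adjusted p called 0 in either direction. At an unadjusted p under 0.05, 14 were lower and 14 higher of the 103, near the shares of 14.1% and 11.3% among all tested probes. Values are given below for up to 3 genes of each list, taken from those with the smallest p. Each value is the difference of the gene's brightest tested probe, and for each of these genes the adjusted p was over 0.05. Among them, Cpt1c was -0.38 without vehicle 1, Acad10 was 0.94, Flad1 was 0.15 and Oxct1 was 0.20, each over 1.5 times smaller than with all arrays, and Bdh1 turned to 0.05. With slide as a block Cpt1c was -0.31, Slc27a1 was 0.22, Crot was 0.37, Acad11 was 0.34 and Pccb was -0.25, while Amacr was 0.11, Etfrf1 was -0.12, Oxct1 was 0.10 and Bdh1 was 0.24. Under quantile normalization Eci2 was -0.21, Ucp3 was -0.31 and Oxct1 was 0.49.

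Other acyl-CoA synthetases and uptake proteins numbered 12, 7 lower and 5 higher, with a median of -0.08. Acsl6, a long-chain synthetase, differed by -1.29 ± 0.30 (limma adjusted p = 0.0862). It read -3.66, -2.60 and -3.61 with MOTS-c, against -1.73, -2.09 and -2.18 with vehicle, without overlap. Acsl5 differed by -0.44 ± 0.18 on its brightest probe and by 0.04 on another, and the uptake protein Slc27a1 by 0.60 ± 0.22.

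Other genes of the carnitine shuttle numbered 9, 3 lower and 6 higher, with a median of 0.02. Crat, the carnitine acetyltransferase that buffers short-chain acyl-CoA, read 2.13, 2.20 and 2.10 with MOTS-c, against 3.10, 2.68 and 2.98 with vehicle. The groups were well apart, with a difference of -0.77 ± 0.16 (limma adjusted p = 0.0795). Crot, the peroxisomal octanoyltransferase, differed by 0.63 ± 0.18, and Cpt1c, a carnitine palmitoyltransferase best known in brain, by -0.65 ± 0.25 on a dim signal.

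Other acyl-CoA dehydrogenases numbered 9, 2 lower and 7 higher, with a median of 0.19. Acad10 differed by 1.43 ± 0.39 on a dim signal, at -3.21 to -2.90 with MOTS-c and -5.50 to -3.96 with vehicle. Acad11 differed by 0.54 ± 0.17 and Acad8, the isobutyryl-CoA dehydrogenase of valine breakdown, by 0.34 ± 0.14. Among 16 other hydratase, isomerase, dehydrogenase and thiolase genes 10 were lower and 6 higher, with a median of -0.07 that turned to 0.01 under quantile normalization. Eci2, an enoyl-CoA isomerase, differed by -0.45 ± 0.14, Pccb, a subunit of propionyl-CoA carboxylase, by -0.52 ± 0.18, and Echdc2 by 0.59 ± 0.14.

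Downstream of Etfa and Etfb, Etfdh encodes the oxidoreductase that hands their electrons to ubiquinone. It read 2.56, 2.59 and 2.41 with MOTS-c, against 3.01, 2.86 and 3.10 with vehicle. The groups did not overlap, and the difference was -0.47 ± 0.14 (limma adjusted p = 0.126). Of the 5 genes tested on this list 3 were lower and 2 higher, with a median of -0.07. Etfrf1 differed by -0.31 ± 0.16 on its brightest probe and by 0.41 on another, and Flad1, the FAD synthase, by 0.26 ± 0.17.

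Of 14 genes of peroxisomal oxidation, 4 were lower and 10 higher, with a median of 0.22. Amacr, a racemase for branched chains, differed by 0.46 ± 0.19, and the oxidase Acox3 by 0.47 ± 0.16 on its brightest probe and -0.12 on another. Of 4 ketone body genes 3 were lower and 1 higher, with a median of -0.04 that turned to 0.08 under quantile normalization. Oxct1 differed by 0.32 ± 0.17 and Bdh1 by -0.04 ± 0.17.

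Of 21 regulators and fasting targets 6 were lower and 15 higher, with a median of 0.19. Nrf1, a regulator of mitochondrial genes, differed by -0.91 ± 0.22. The uncoupling protein genes Ucp2 and Ucp3, which are neighbours, differed by -0.56 ± 0.15 and -0.51 ± 0.15. Ppargc1a, a coactivator of this pathway, was well above background on 0 of 6 arrays. Of 13 genes of fatty acid synthesis and lipolysis 3 were lower and 10 higher, with a median of 0.21. Dgat1 differed by 0.64 ± 0.16, Scd1 by 0.76 ± 0.24 and Mgll, the monoacylglycerol lipase, by -0.78 ± 0.20.

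**Figure D4:**
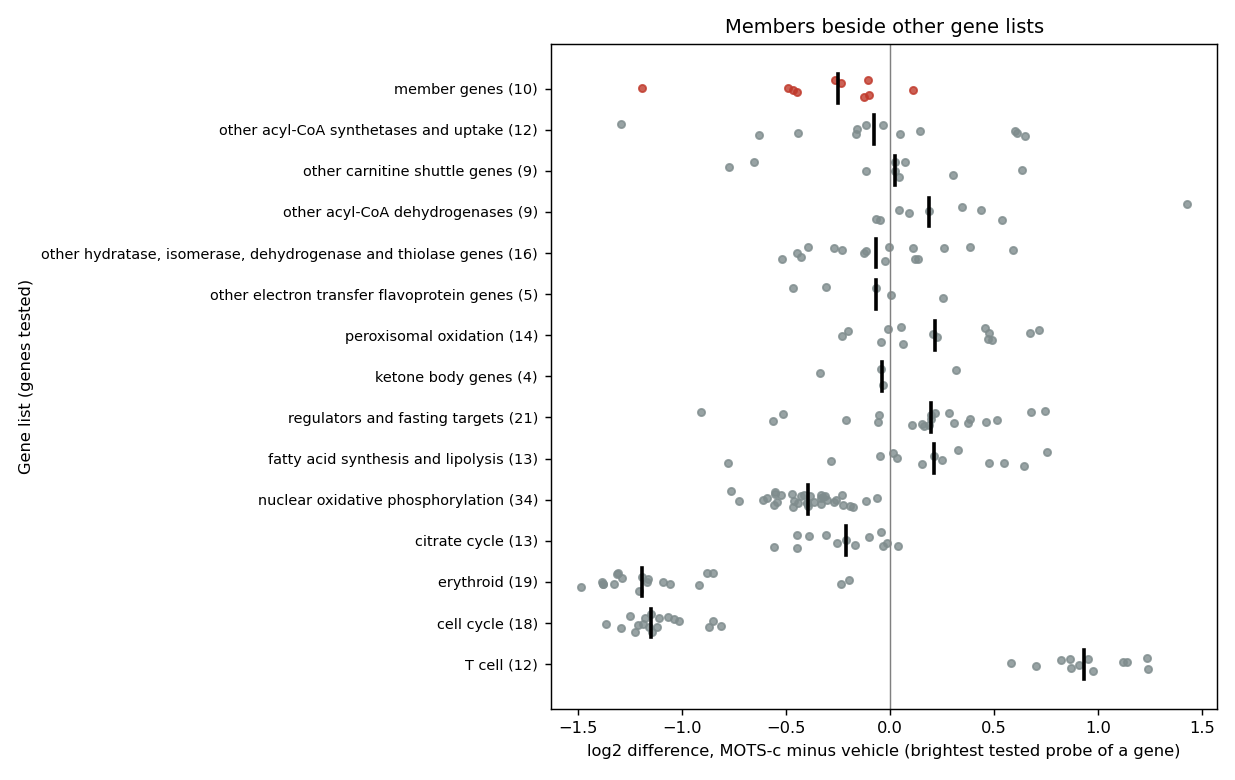
Log2 difference, MOTS-c minus vehicle, of the brightest tested probe of each gene (points, x axis) by gene list (rows), with the list's median as a black bar. The 10 member genes have a median of -0.25, between the citrate cycle at -0.21 and nuclear oxidative phosphorylation at -0.40, while the peroxisomal list has 0.22.

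Other mitochondrial energy genes give the scale of these differences. By the brightest probe of each gene the 10 member genes had a median of -0.25, 9 lower and 1 higher. All 34 tested nuclear genes of oxidative phosphorylation had lower fitted levels with MOTS-c, with a median of -0.40, and 31 had groups apart. Of 13 citrate cycle genes 12 were lower and 1 higher, with a median of -0.21, and 6 were apart. Limma's adjusted p called 0 genes of either list. Under quantile normalization the medians were -0.16 for the member genes (7 lower, 3 higher), -0.19 for oxidative phosphorylation (28 lower, 6 higher) and -0.03 for the citrate cycle (9 lower, 4 higher).

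Promoter windows of the members, which also run a short way past the annotated start, were searched for motifs of nuclear receptors. All 10 genes were found in the RefSeq promoter table of GRCm38.p6, Acsl1 with 2 windows. The direct repeat AGGTCANAGGTCA, read by peroxisome proliferator-activated receptors, was searched on both strands and was in 0 of 11 member windows, against 0.0396% of all 32851 windows. The element TCAAGGTCA of oestrogen-related receptors was in 0 of 11, against 0.423%. With shares this low, 0 of 11 is no result about the members. The core hexamer AGGTCA, which is contained in both, was in 3 of 11 windows, each of a different member, against 16.3% of all windows. With so few windows, that count is no result about the members either. The contexts are printed with the hexamer, or its reverse complement TGACCT, in capitals, on the strand of the gene.

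Acadvl, chr11:70015498-70015527, minus strand: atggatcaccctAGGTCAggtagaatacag
Cpt1a, chr19:3323195-3323224, plus strand: cagtttccttacTGACCTcctccccgcagc
Acadm, chr3:153944875-153944893, minus strand: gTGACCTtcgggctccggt

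The hexamers start 87, 94 and 249 bases before the annotated start of Acadvl, Cpt1a and Acadm. Acsl1, Cpt2, Acadl, Hadha, Hadhb, Etfa and Etfb, members with wide and with small differences, had no such match. A match describes letters in a window and was not tested as a binding site.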

How the data were processed

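Cy3 images were quantified, per the file headers, by version 11.0.1.1 of Agilent Feature Extraction, which gave a background-subtracted processed signal intensity per spot. The authors' deposited table holds log2 values, signed folds (a score per probe) and p-values for 31692 probes; its normalization and test are not given in the sources used here, and the values match quantile normalization. Its processed intensities equalled the deposited scanner intensities within 0.001 for 99.6% to 99.7% of probes. Its 6 flag columns were not used. Gene symbols and mm9 probe positions were copied as other, non-numeric content of the deposited table. Exon or untranslated region positions of probes were not determined, for want of an mm9 annotation here.

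Control spots and 97 to 145 outlier spots per array were left out, and spots of a probe averaged in log2. From the log2 processed signal of a probe the 75th percentile of its array was subtracted. A probe entered the test if every array of MOTS-c or of vehicle had it well above background, and the test was run with limma 3.58.1 in R 4.3.3 (lmFit, eBayes, two-sided, Benjamini-Hochberg, threshold 0.05), which was tested on simulated data. The number of arrays limits the precision, and p-values cover no more than the spread among these samples. Alternatives were quantile normalization, normexp with an offset of 50 (on the median spot signal, in place of the planned mean), the deposited log2 values, other filters, the brightest probe per gene, a trended prior, blocks, and leaving out each array.

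The members, lists and alternatives were chosen with earlier results of these data known. The named genes are every member, the 3 genes with the smallest unadjusted p of each pathway list by their brightest probe, the 5 genes nearest to the member with the widest difference, and each member's nearest member; a few genes chosen this way are not reported here. Replicate numbers were taken from the titles; the descriptions of vehicle 3 and MOTS-c 3 give other numbers. Same-numbered arrays did not deviate together (correlations -0.17, 0.0064 and -0.09). With so few arrays, these correlations cannot show whether same-numbered samples were handled together. The numbers are used here as names only.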

Additional observations from a re-analysis of the deposited data

How the results depend on the processing

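The count of probes past limma's adjusted p of 0.05, 2 as reported, was 2 under quantile normalization and with the brightest probe per gene. It was 0 under normexp with quantile normalization, with the deposited log2 values, with probes above background on all arrays, with no filter and with replicate number as a block, and 1 with slide as a block. It was 781 with a trended prior, and 0 to 1113 when leaving out 1 array, with 1113 without vehicle 2 and 39 without vehicle 3. The count of member probes past it was 0 as reported and 1 with a trended prior (2.09% of tested probes lower, 0.222% higher), and 0 to 1 when leaving out 1 array, with 1 without vehicle 2 (2.87% lower, 0.427% higher). That probe was the brightest of Acsl1, with adjusted p-values of 0.0467 and 0.0496. Over all 15 alternatives its difference ran from -1.36 to -0.97 and its adjusted p from 0.0467 to 0.478. Pairing by replicate number, as a block, left the member calls at 0 and the members' median at -0.27.

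The 11 member probes without overlap were 12 under quantile normalization (11 lower, 1 higher), against 16.6% of tested probes lower and 17.9% higher. They were 12 with the deposited values (11 lower, 1 higher), against 16.7% and 17.7% of the table's probes. Without vehicle 3, 12 were lower, against 27.2%, and 1 was higher, against 23.9%, but treatment and slide cannot be told apart in that setting. The count was 11 under normexp (10 lower, 1 higher) and 6 of 10 with the brightest probe per gene, where fewer probes are counted. It was 11 to 14 when leaving out 1 array, where fewer arrays leave more of all probes without overlap. No share over all probes is given for the normexp, brightest-probe and 11 to 14 counts, so they are no result about the members. The members' median was -0.23 under normexp, -0.29 with slide as a block and -0.36 to -0.27 when leaving out 1 array. Signs turned for 4 probes, none past the threshold, and the cause was not tested. Cpt1a was 0.0032 under quantile normalization, 0.039 under normexp, 0.0026 with the deposited values and 0.017 without vehicle 3, with a range of -0.33 to 0.017 when leaving out 1 array. The brighter Etfb probe was 0.10, 0.085 and 0.10 under those first 3. The overlapping Hadhb probe was 0.18 with slide as a block. The dim Cpt2 probe was -0.02 without MOTS-c 1 and -0.15 without vehicle 1, with a range of -0.15 to 0.34 when leaving out 1 array. The other 14 member probes kept their sign in every alternative run.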
